A study of Mus musculus with 22 samples.

Results

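Proteasome genes were examined in mouse loose subcutaneous connective tissue, as every gene whose symbol begins with Psma, Psmb, Psmc, Psmd or Psme followed by a number. Of 12393 genes with a probe annotated to a single symbol, 43 met this rule, and the probe that was brightest on average across the 22 samples stood for each gene. They comprised 8 alpha and 7 beta subunits of the core particle, the 3 immunoproteasome subunits Psmb8, Psmb9 and Psmb10, 6 ATPases of the regulatory particle, 11 other subunits of its base and lid, 3 activators and 3 assembly chaperones. Another 2 genes, Psmc3ip and Psme3ip1, carry such symbols but encode partner proteins and no subunit. They are counted among the 43 members and left out of the 41 subunits, activators and chaperones. Psme2 shared its probe with Psme2b, so no value was assigned to it.

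The mice were C57BL/6 males of 19 to 24 g, for which the labels give no age and no genetic change, and the tissue was taken from the trunk. Each of 11 animals gave a piece that was stretched and a piece that was shortened, with the choice randomized. In 7 animals the tissue was held in vivo and in 4 it was held ex vivo, which made 4 groups: in vivo shortened, in vivo stretched, ex vivo shortened and ex vivo stretched. The force and the duration of the stretch are not stated in the labels.

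The proteasome degrades proteins that carry ubiquitin chains. Its core is a barrel of alpha rings, which gate the entrance, and beta rings, which hold the proteolytic sites. Among the beta subunits Psmb6 carries caspase-like, Psmb7 trypsin-like and Psmb5 chymotrypsin-like activity. Interferon induces Psmb9, Psmb10 and Psmb8, which take the places of Psmb6, Psmb7 and Psmb5 in newly made immunoproteasomes and favour peptides that fit MHC class I molecules. The regulatory particle binds ubiquitin chains, removes them, and unfolds the substrate with its ring of ATPases. Psme1 is part of an interferon-inducible activator cap, whereas Psme3 forms a nuclear one. In fibroblasts and muscle the proteasome takes part in the turnover of cytoskeletal and contractile proteins.

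Promoter windows of 300 bases, from 250 bases before the annotated start to 50 after it, were available from RefSeq for 36 of the 43 members (39 promoters, build GRCm38.p6). Both strands were searched for the antioxidant response element TGACNNNGC, the CCAAT box CCAAT, the interferon-gamma activated site TTCNNNGAA and the interferon-stimulated element, read as GAAA, any 2 bases and GAAA. The antioxidant element stood in 15.4% of member promoters and 12.4% of all 32851 promoters, and the CCAAT box in 38.5% and 37.4%. The interferon-gamma site stood in 5.13% and 8.3%, and the interferon-stimulated element in 10.3% and 3.44%, which was 4 members, Psmb3, Psmd4, Psmd9 and Psme1. A match describes the letters alone. The promoters of a pair of standard and a pair of immunoproteasome catalytic subunits are shown, because the comparisons set these genes side by side. The window of the immunoproteasome subunit Psmb10 was searched as well, held no match to any of the motifs and is not shown. Capitals mark the single motif match in each window shown. It is the antioxidant element in Psmb5 (chr14:54617946-54618245, minus strand, first base at position -47 from the start) and in Psmb6 (chr11:70525107-70525406, plus strand, position -9). It is the interferon-gamma site in Psmb8 (chr17:34197945-34198244, plus strand, position -97), and the CCAAT box read on the opposite strand in Psmb9 (chr17:34187281-34187580, minus strand, position -8).

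Psmb5: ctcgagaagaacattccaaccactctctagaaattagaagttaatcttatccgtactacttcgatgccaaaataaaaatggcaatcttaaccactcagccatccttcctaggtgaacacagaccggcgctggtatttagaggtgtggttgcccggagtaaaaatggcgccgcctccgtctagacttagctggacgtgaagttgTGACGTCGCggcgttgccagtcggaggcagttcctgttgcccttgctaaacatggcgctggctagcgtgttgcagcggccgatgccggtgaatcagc
Psmb6: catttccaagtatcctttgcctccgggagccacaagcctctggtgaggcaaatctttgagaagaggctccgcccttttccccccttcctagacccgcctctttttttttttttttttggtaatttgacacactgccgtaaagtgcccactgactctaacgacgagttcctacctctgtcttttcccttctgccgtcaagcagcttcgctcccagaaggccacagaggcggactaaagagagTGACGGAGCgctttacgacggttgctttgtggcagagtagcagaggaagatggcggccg
Psmb8: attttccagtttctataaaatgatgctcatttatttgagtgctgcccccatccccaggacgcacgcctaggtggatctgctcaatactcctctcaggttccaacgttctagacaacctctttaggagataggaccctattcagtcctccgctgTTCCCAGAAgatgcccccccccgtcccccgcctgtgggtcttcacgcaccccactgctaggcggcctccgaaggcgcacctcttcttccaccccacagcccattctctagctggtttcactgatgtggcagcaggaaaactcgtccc
Psmb9: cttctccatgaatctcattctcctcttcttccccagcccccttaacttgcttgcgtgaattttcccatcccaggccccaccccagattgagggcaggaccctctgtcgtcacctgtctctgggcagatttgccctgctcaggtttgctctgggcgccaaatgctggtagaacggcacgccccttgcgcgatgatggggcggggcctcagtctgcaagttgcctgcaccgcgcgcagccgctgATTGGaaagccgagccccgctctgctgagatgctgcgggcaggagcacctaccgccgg

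Values are log2 signals. Errors of single genes are standard errors from limma, over 7 in vivo or 4 ex vivo animals. A gene was called where its limma p, adjusted by the Benjamini-Hochberg method over all 22626 tested probes, was under 0.05. The median probe of a sample was at 7.29 to 7.42 in vivo and 6.85 to 6.90 ex vivo, so comparisons between the settings used values after joint quantile normalization of all 22 samples. The 9 fibroblast markers, among them Dcn, Lum and Col1a1, averaged 11.22 to 12.99 per sample on the deposited scale. The 12 skeletal muscle markers, among them Acta1 and Ckm, averaged 4.92 to 12.04 in in vivo shortened, 4.93 to 12.54 in in vivo stretched, 5.02 to 6.06 in ex vivo shortened and 4.85 to 11.65 in ex vivo stretched pieces. Gapdh control probes at the 3' end exceeded those at the 5' end, a measure of RNA integrity, by 0.11 to 0.27 in in vivo animals 1 to 3, 0.87 to 3.61 in animals 4 to 7 and 0.05 to 0.91 ex vivo. In such bulk tissue, fewer cells of a type and less RNA per cell cannot be told apart. Precision is limited by how many arrays there are. 

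In vivo, the comparison asked how proteasome genes differed between stretched and shortened tissue of the same animal. No member passed the test, as no probe did (0 of 22626, 0.00%), and at an unadjusted limma p under 0.05 stood 5 of 43 members, or 11.6%, against 19.3% of all probes. All 5 were higher in stretched tissue, where 7.95% of probes were higher at that level. The median log2 difference was 0.03 over members and -0.02 over all probes, with 28 of 43 members (65.1%, counting Psmc4 at 0.00) and 43.7% of probes above 0. All 41 subunits, activators and chaperones had 95% intervals between -0.29 and 0.29.

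In the regulatory particle all 11 base and lid subunits had values above 0 in vivo, with a median of 0.09 and no call. The ATPases had a median of 0.03, with Psmc4 at 0.00 ± 0.05 and the other values above 0. Psmd12, a lid subunit, ran from 10.25 over a median of 10.60 to 10.66 in shortened and from 10.39 over 10.65 to 10.82 in stretched pieces. These ranges overlapped, and the paired difference was 0.16 ± 0.06 (limma, adjusted p = 0.19), positive in 5 of 7 animals. Psmd4, a ubiquitin receptor, had a difference of 0.11 ± 0.04 (limma, adjusted p = 0.203), positive in 6 of 7 animals. Psmd13, another lid subunit, differed by 0.15 ± 0.06 (adjusted p = 0.22), and the ATPase Psmc1 by 0.11 ± 0.05 (adjusted p = 0.242).

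Core subunits were spread around 0 in vivo. The alpha subunits had a median of -0.02, with 2 of 8 above 0, and the beta subunits one of 0.04, with 5 of 7 above 0. Psmb7 ranged from 10.15 over a median of 11.04 to 11.25 in shortened and from 10.17 over 11.18 to 11.35 in stretched tissue. Its paired difference of 0.15 ± 0.06 was positive in 6 of 7 animals (limma, adjusted p = 0.2). The other standard catalytic subunits, Psmb5 and Psmb6, differed by 0.07 ± 0.04 and 0.04 ± 0.04, each above 0 in 5 of 7 animals. Both intervals reached below 0.

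The 3 immunoproteasome subunits all had values below 0 in vivo and none passed the test. Psmb8 ran from 10.73 over a median of 10.87 to 11.36 in shortened and from 10.75 over 10.83 to 11.15 in stretched pieces. Its difference was -0.07 ± 0.04 (limma, adjusted p = 0.36), with a 95% interval of -0.16 to 0.02, and 1 of 7 animals was higher. Psmb9, at -0.06 ± 0.05, and Psmb10, at -0.06 ± 0.05, were higher in 3 and 2 of 7 animals. The activator Psme1 was higher in stretched tissue of 1 of 7 animals, at -0.08 ± 0.04 (limma, adjusted p = 0.263). Fbxo32, a muscle ubiquitin ligase outside the member list, differed by 0.44 ± 0.17 and Trim54 by 1.40 ± 0.41, neither past the threshold (limma, adjusted p = 0.211 and 0.172).

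Animals differed in how many members were higher in their stretched piece. The counts in animals 1 to 7 were 23, 31, 27, 27, 32, 17 and 12 of 43, against 43.1% to 49.1% of all probes in the same animals. The muscle marker mean of the stretched minus the shortened piece was -0.05, 1.16, 1.62, -0.07, 5.97, 4.38 and 1.93 in the same order. Animals 5 and 6, with the widest muscle differences, had 32 and 17 members higher. With muscle content as a covariate, 0 members had an unadjusted p under 0.05 and the median was 0.01, while the share of all probes at that level was 6.05%, down from 19.3%. Other lists differed in direction in the same comparison, with no gene called. Of all 22626 probes 12728 were below 0, and 2574 of these had an unadjusted limma p under 0.05. All 8 macrophage markers were below 0 (median -0.16, 7 with an unadjusted p under 0.05), as were all 9 fibroblast markers (median -0.12, 6 of them) and 14 of 16 interferon genes (median -0.12, 5 of them). All 4 adipocyte markers were above 0 (median 0.32, 2 at that level), as were all 12 muscle markers (median 2.23, 11 at that level). Of 5 endothelial markers 4 were above 0 (median 0.38), with 3 higher and 1 lower at that level. The 10 MHC class I genes had a median of -0.01. The part of any of these lists in the immunoproteasome values was not tested.

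**Figure D1:**
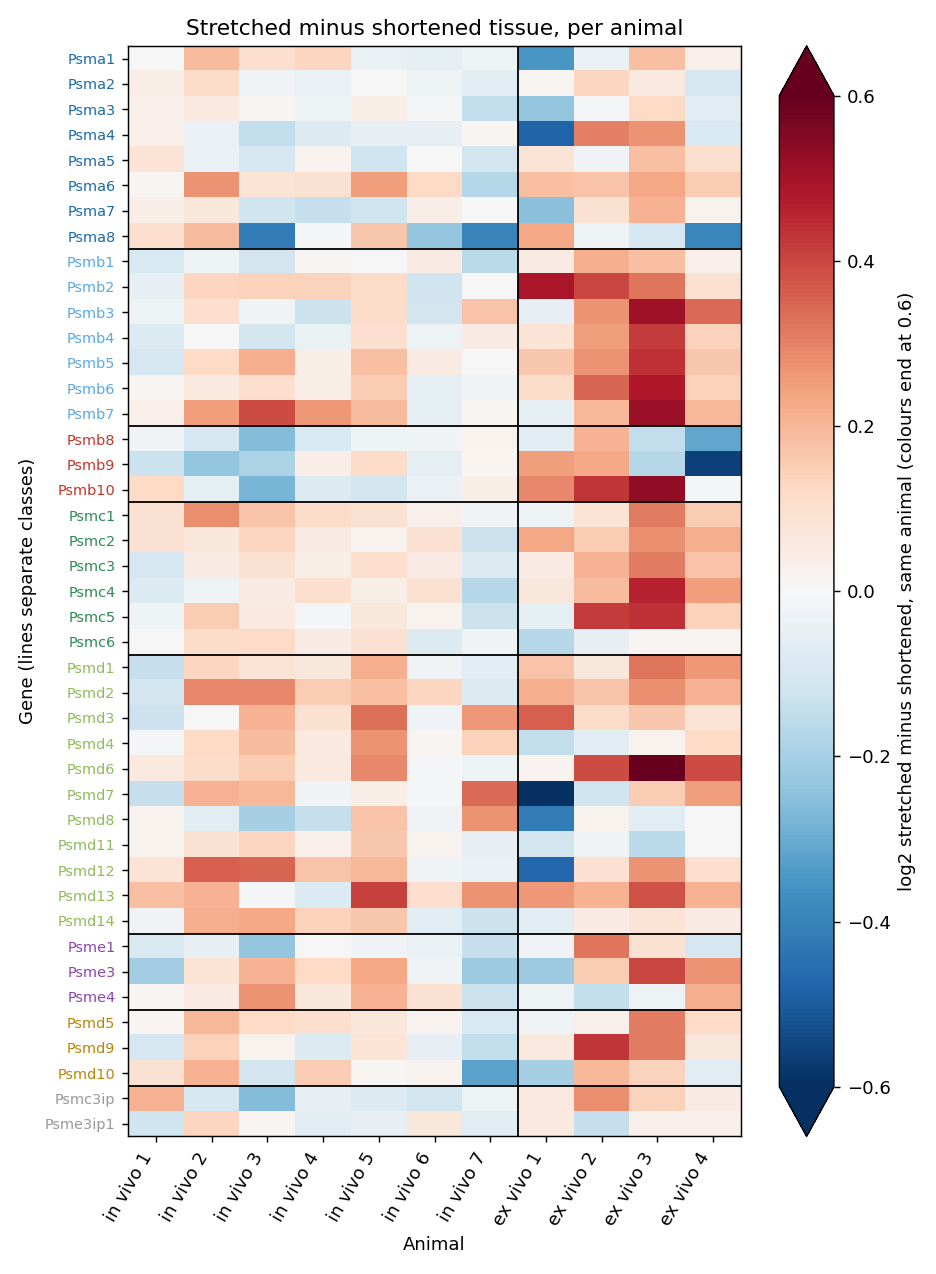
Log2 difference of stretched minus shortened tissue for the 43 members (rows, grouped by class) in 7 in vivo and 4 ex vivo animals (columns), with the colour scale ending at 0.6 on either side. The beta subunits from Psmb1 to Psmb7 are red in almost every ex vivo cell, while Psmb8 and Psmb9 turn blue in ex vivo animals 3 and 4.

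Ex vivo, the same comparison was made within 4 animals. No member passed the test, as no probe did (0 of 22626, 0.00%), while 14 of 43 members (32.6%) had an unadjusted limma p under 0.05 against 11.1% of all probes. All 14 were higher in stretched tissue, a direction taken at that level by 5.23% of probes. The median difference was 0.12 over members and 0.00 over probes, and 30 of 43 members (69.8%) and 50.4% of probes lay above 0. In all 4 animals 16 members were higher and 1, Psmd11, was lower, against 10.8% and 9.32% of probes.

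Among the standard beta subunits all 7 had values above 0 ex vivo, from 0.12 to 0.32 with a median of 0.26, and 5 of them had an unadjusted p under 0.05. Psmb5, in animals 1 to 4, stood at 11.04, 10.95, 10.92 and 10.83 in shortened and at 11.20, 11.22 and 11.35 in stretched tissue of animals 1 to 3, with animal 4 higher by 0.16. Every animal was higher when stretched, although the lowest stretched value fell within the shortened range, and the difference was 0.26 ± 0.08 (limma, adjusted p = 0.369). Psmb6 went from 10.43, 10.27, 10.31 and 10.36 to 10.54, 10.62, 10.79 and 10.50, with no overlap of the groups. Its difference was 0.27 ± 0.09 (limma, adjusted p = 0.39). Psmb7 stood at 11.36, 11.38, 11.34 and 11.37 in shortened and 11.30, 11.59, 11.86 and 11.58 in stretched pieces, lower in animal 1 and higher in the others. Psmb2, a beta subunit without a proteolytic site, had the smallest p of the class, with 0.32 ± 0.09 (limma, adjusted p = 0.363).

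The immunoproteasome subunits did not share that pattern among themselves. Psmb8 was 11.55, 11.59, 11.76 and 11.59 in shortened and 11.48, 11.80, 11.60 and 11.28 in stretched tissue, higher in animal 2 alone. Psmb9 moved from 10.17, 10.29, 10.42 and 10.30 to 10.42, 10.51, 10.25 and 9.73, higher in animals 1 and 2 and lower in animals 3 and 4. Psmb10 moved from 11.19, 11.08, 10.92 and 11.01 to 11.48, 11.52 and 11.45 in animals 1 to 3, which were higher, and by -0.01 in animal 4. The 3 differences were -0.08 ± 0.09, -0.06 ± 0.15 and 0.31 ± 0.10, with limma's adjusted p at 0.785, 0.905 and 0.388. The intervals of Psmb8 (-0.31 to 0.14) and Psmb9 (-0.41 to 0.28) include values in both directions.

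Other classes were mixed ex vivo. The ATPases had a median of 0.20 with 5 of 6 above 0, the largest in Psmc4 with 0.24 ± 0.09 and the smallest p in Psmc2 with 0.22 ± 0.07, while the alpha subunits had a median of 0.01 with 4 of 8 above 0. Psma6, an alpha subunit whose probe may also bind related sequences, was higher in all 4 animals with 0.18 ± 0.06. The mean of all its probes gave -0.02. Its probe at a mean level of 11.12 gave 0.09, that at 6.23 gave 0.08 and a dim one at 4.69 gave -0.41. Among base and lid subunits the median was 0.03. Psmd6, a lid subunit, had a difference of 0.38 ± 0.12 and Psmd2, a scaffold of the base, one of 0.22 ± 0.06, whereas Psmd7 and Psmd8 lay at -0.12 ± 0.17 and -0.12 ± 0.09. None of these passed the test, with limma's smallest adjusted p among the members at 0.363. The activators Psme3 and Psme1 lay at 0.15 ± 0.12 and 0.07 ± 0.08, and the chaperones Psmd9 and Psmd5 at 0.22 ± 0.11 and 0.11 ± 0.09.

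The ex vivo pieces differed in muscle content. The muscle marker mean of the stretched minus the shortened piece was -0.52, 0.19, 5.28 and 5.60 in animals 1 to 4. The beta class median was 0.08, 0.27, 0.44 and 0.14 in the same order, and that of the immunoproteasome 0.25, 0.23, -0.15 and -0.31. The pieces of animals 3 and 4 were richer in muscle transcripts when stretched. Their immunoproteasome medians were negative, although Psmb10 was higher by 0.53 in animal 3. The beta median of animal 4 lay below that of animal 2. The part of muscle content in these medians was not tested, and 4 animals cannot tell it from other differences between the animals. With muscle content as a covariate the beta median was 0.17, the immunoproteasome median 0.22, and 3 of 43 members had an unadjusted p under 0.05, as did 8.52% of all probes. Without animals 3 and 4 the medians were 0.17 and 0.24, with 2 members at that level and 5.20% of probes. Without animal 3 it was 1 member and 4.23% of probes, and without animal 2 it was 8 members and 7.97%.

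The difference between the settings in the stretch effect was tested with an interaction over all 22 samples and 11 animals. No member passed, against 40 of 22626 probes (0.177%), and 13 of 43 members had an unadjusted limma p under 0.05 (30.2% against 15.3% of probes), all with the higher value ex vivo, which 8.56% of probes had at that level. Of the 7 standard beta subunits 6 were among them, with a class median of 0.23, and 4 of the 6 ATPases. Psmb10 had the smallest p, a difference of 0.37 ± 0.10 (limma, adjusted p = 0.124), followed by Psmb4 with 0.24 ± 0.07 (adjusted p = 0.149). These counts rest on the brightest probes. A second Psmb4 probe, at a mean level of 10.19, gave 0.07 (limma, adjusted p = 0.777). The dimmer Psmb1 probes gave -0.07 and -0.09, and a second Psmb3 probe gave 0.23. Psmb8 and Psmb9 differed by -0.01 ± 0.09 and -0.00 ± 0.14. The result depended on single animals: without ex vivo animal 1, Psmb3 (0.36, adjusted p = 0.05 after rounding) and Psmd6 (0.41, adjusted p = 0.041) passed the threshold, and without ex vivo animal 4, Psmb10 did (0.48, adjusted p = 0.0315). The share of all probes called in these fits was 2.93% and 1.46%, against 2 and 1 of 43 members.

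**Figure D2:**
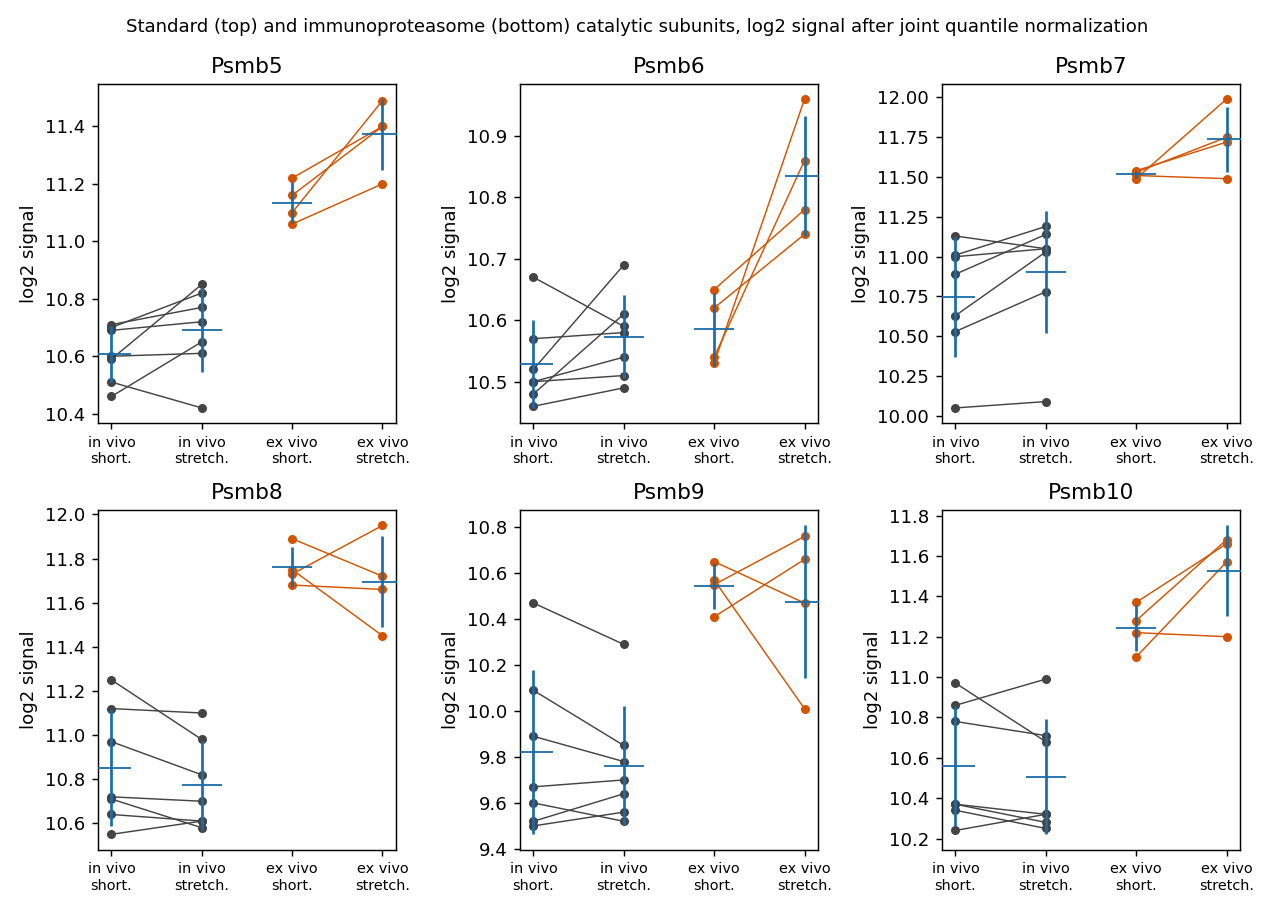
Log2 signal after joint quantile normalization (vertical axes, separate for each gene) of the standard catalytic subunits Psmb5, Psmb6 and Psmb7 (top) and the immunoproteasome subunits Psmb8, Psmb9 and Psmb10 (bottom) in the 4 groups. Points joined by a line are the pieces of 1 animal, and bars give mean ± SD over 7 animals in vivo and 4 animals ex vivo. The in vivo animals of Psmb8 to Psmb10 spread more widely than those of Psmb5 and Psmb6.

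The largest differences lay between the settings. In shortened tissue 37 of 43 members were called, 32 higher and 5 lower ex vivo, while 67.2% of all probes were called, 32.7% higher and 34.5% lower. Values for the same comparison on the deposited scale, without joint normalization, gave 34 calls, 23 higher and 11 lower, and calls for 73.1% of all probes, since all probes shifted by a median of -0.38 there and by -0.02 after joint normalization. Of the members called higher, 23 were called higher on both scales, and Psmb3, Psmc2, Psmd1, Psmd4, Psmd13 and Psme4 had values below 0 on the deposited scale without being called lower. The median difference was 0.57 over members and -0.02 over all probes, and the groups did not overlap for 29 members that were higher and 4 that were lower, against 26.4% and 27.1% of probes. The setting, the processing of its arrays and the handling of the tissue cannot be told apart, because each setting has its own animals and its own distribution of values.

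Standard beta subunits differed among themselves between the settings. Psmb5 in shortened tissue ran from 10.46 over a median of 10.60 to 10.71 in vivo and was 11.22, 11.16, 11.10 and 11.06 in ex vivo animals 1 to 4. The groups did not overlap, and the difference was 0.53 ± 0.07 (limma, adjusted p = 1.47e-05). Psmb7 ran from 10.05 over 10.89 to 11.13 in vivo and was 11.51, 11.53, 11.49 and 11.54 ex vivo, a difference of 0.77 ± 0.17 (limma, adjusted p = 0.00157). Its in vivo animals ranged over more than a full log2 unit, whereas the ex vivo animals were nearly equal. Psmb6 was not called in shortened tissue, with 10.46, 10.50 and 10.67 as the lowest, median and highest in vivo values, 10.65, 10.54, 10.53 and 10.62 ex vivo, and a difference of 0.06 ± 0.06 (limma, adjusted p = 0.404). On the deposited scale its difference was -0.33, which was called (limma, adjusted p = 0.000422). Psmb2 was higher by 1.03 ± 0.07, and Psmb1, which has no proteolytic site of its own, was lower by 0.29, with -0.29 ± 0.06 (limma, adjusted p = 0.000746).

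All 3 immunoproteasome subunits were called higher ex vivo in shortened tissue. Psmb8 ran from 10.55 over a median of 10.72 to 11.25 in vivo and stood at 11.68, 11.73, 11.89 and 11.75 ex vivo. Every ex vivo value lay above every in vivo value, with a difference of 0.91 ± 0.13 (limma, adjusted p = 4.13e-05). Psmb10 ran from 10.24 over 10.37 to 10.97 in vivo and was 11.37, 11.28, 11.10 and 11.22 ex vivo, a difference of 0.68 ± 0.14 (limma, adjusted p = 0.00106). Psmb9, from 9.50 over 9.67 to 10.47 in vivo and at 10.41, 10.55, 10.65 and 10.57 ex vivo, differed by 0.72 ± 0.17 (limma, adjusted p = 0.00213), and 1 in vivo animal reached into the ex vivo range. On the deposited scale Psmb9 differed by 0.32 and was no longer called (adjusted p = 0.0949). Against all in vivo animals, Psmb8 and its standard partner Psmb5 differed between the settings by 0.91 and 0.53. Psmb10 and Psmb7 differed by 0.68 and 0.77, and Psmb9 and Psmb6 by 0.72 and 0.06. Whether the values of a pair differ from each other was not tested.

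In vivo animals 1 to 3 and 4 to 7 also differed in more than 1 class. In shortened tissue Psmb8 was 11.12, 10.97 and 11.25 in in vivo animals 1 to 3 and 10.71, 10.64, 10.72 and 10.55 in animals 4 to 7, without overlap. The ATPase class median, relative to the group mean, lay the other way round, at -0.11, -0.19 and -0.14 in animals 1 to 3 and at 0.10, 0.09, 0.13 and 0.13 in animals 4 to 7. Animals 4 to 7 also had the wider Gapdh 3' minus 5' differences, and the part of RNA integrity in these levels was not tested. Against in vivo animals 1 to 3 alone the ex vivo difference of Psmb8, Psmb9 and Psmb10 was 0.65, 0.39 and 0.37, and against animals 4 to 7 alone 1.11, 0.97 and 0.91, each called by limma in shortened tissue. Psmb7 went the other way, with 1.11 against animals 1 to 3 and 0.51 against animals 4 to 7. Which of Psmb10 and Psmb7 differed more therefore depended on the in vivo animals taken. Psmb5 gave 0.53 and 0.52, and Psmb6 0.11 and 0.02.

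Most core alpha and regulatory subunits were higher ex vivo as well. Psma1 led the alpha class, from 9.35 over a median of 9.66 to 9.86 in vivo against 11.12, 11.19, 11.10 and 11.14 ex vivo, a difference of 1.49 ± 0.10 (limma, adjusted p = 5.19e-08). The groups stood more than a log2 unit apart, but 2 much dimmer probes of the gene gave 0.49 (adjusted p = 0.0596) and -0.74 (adjusted p = 0.00372). The alpha class had a median of 0.70 with 6 of 8 called higher; Psma4 was not called, and Psma8, a testis form at a mean level of 4.12 near the lower end of the array, was lower by 0.42, with -0.42 ± 0.09. The ATPases had 5 of 6 called higher and a median of 0.61. On the brightest probes Psmc6 was the most different of them, with 9.87, 10.08 and 10.22 as the in vivo lowest, median and highest, 11.12, 11.24, 11.31 and 11.20 ex vivo, and a difference of 1.18 ± 0.08 (limma, adjusted p = 9.86e-08). Its dimmer probes gave 0.46 (adjusted p = 0.0318) and 0.67 (adjusted p = 0.0282). Psmc4 gave 0.66 on its brightest probe, at a mean level of 9.43, and 2.19 (limma, adjusted p = 6.46e-08) on a probe at 9.25. Psmc3 was not called.

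In the base and lid 9 of 11 subunits were called higher and 1 lower, with a median of 0.61. Psmd11, a lid scaffold, differed by 0.98 ± 0.06 and had the smallest p of all members (limma, adjusted p = 3.51e-08). Psmd7, Psmd3 and Psmd2 differed by 1.17 ± 0.09, 1.11 ± 0.12 and 1.01 ± 0.09, and Psmd14, the deubiquitinase of the lid, by 0.61 ± 0.06. Psmd6 was lower by 0.29, although its other probe gave 0.42 (limma, adjusted p = 0.018). Among activators, nuclear Psme3 differed by 1.45 ± 0.14, interferon-inducible Psme1 by 0.44 ± 0.07 and Psme4 by 0.33 ± 0.06, all called. The other probes of Psme4 gave 0.16 (limma, adjusted p = 0.0845) and -0.03 (adjusted p = 0.867). The chaperone Psmd10 differed by 1.32 ± 0.13, while Psmd5 and Psmd9 were not called. At least 2-fold differences were reached by 9 members, against 11.2% of probes. Among these was Psma5, at 1.07 on its brightest probe, which had a mean level of 10.92. Its probe at a mean level of 10.89 gave 0.04 (limma, adjusted p = 0.551), and a dim probe at 4.38 gave 1.27.

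**Figure D3:**
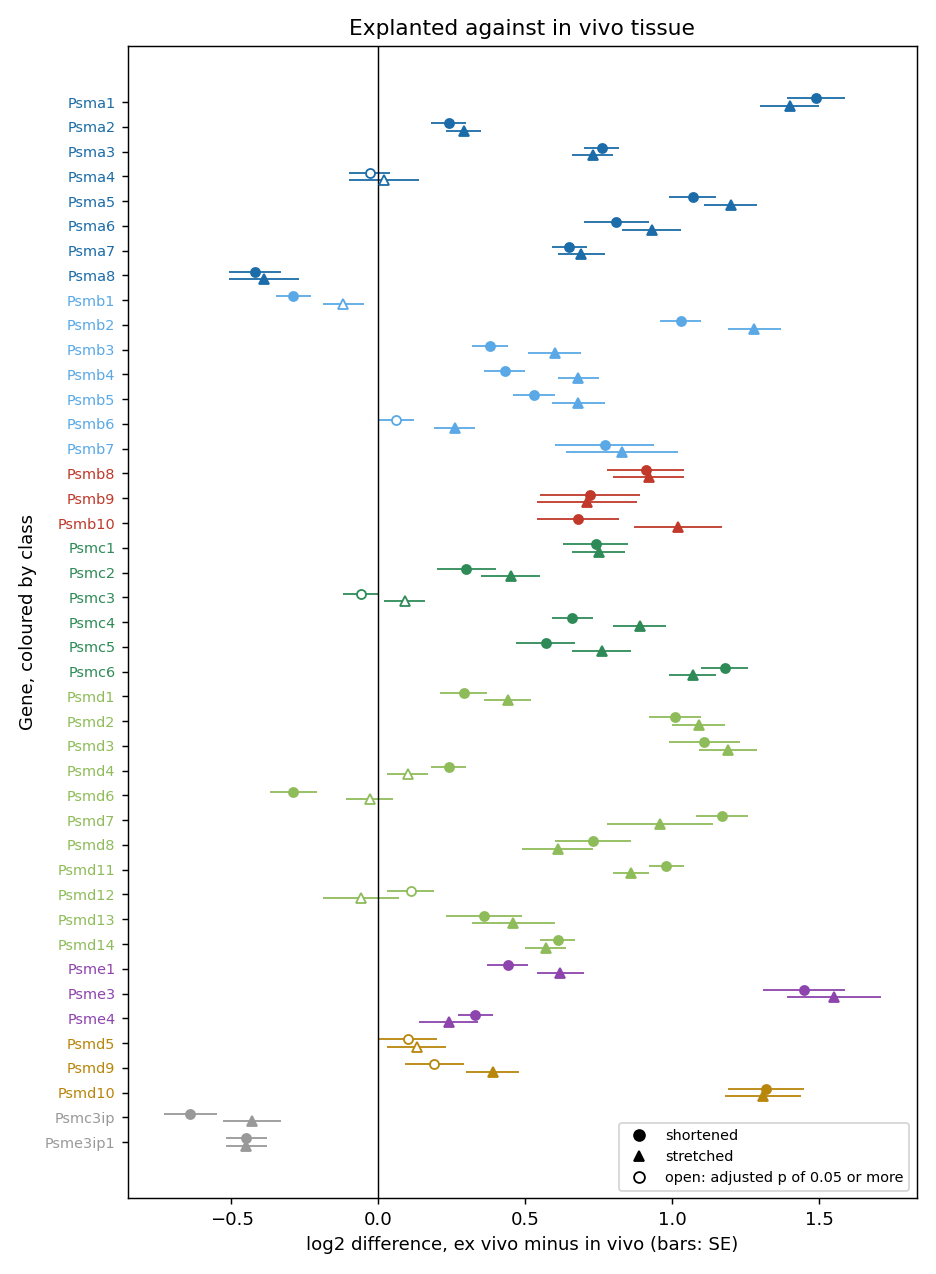
Log2 difference of ex vivo minus in vivo tissue with its standard error (horizontal axis) for the 43 members (rows, coloured by class), with circles for shortened and triangles for stretched tissue, and open symbols where the adjusted p was 0.05 or more. Most symbols lie right of 0, and the values run from -0.64 for the partner protein Psmc3ip in shortened tissue to 1.55 for Psme3 in stretched tissue.

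Stretched tissue gave the settings comparison in the other pieces of the same animals. Of 43 members 36 were called, 33 higher and 3 lower ex vivo (64.3% of all probes called, 31.8% higher), and on the deposited scale 33 were called, 24 higher and 9 lower (70.6% of all probes called), with Psmb6, Psme4 and Psmd9 below 0 there and not called. The median was 0.68 over members and -0.01 over all probes. The groups did not overlap for 31 members that were higher and 2 that were lower, where 24.0% and 23.6% of probes did so. Psmb10 ran from 10.25 over a median of 10.32 to 10.99 in vivo and was 11.66, 11.68, 11.57 and 11.20 ex vivo, a difference of 1.02 ± 0.15 (limma, adjusted p = 8.78e-05). Psmb8 and Psmb9 differed by 0.92 ± 0.12 and 0.71 ± 0.17, and Psmb6 by 0.26 ± 0.07 (limma, adjusted p = 0.00427), though by -0.10 on the deposited scale. Psmb2 stood at 9.35, 9.40 and 9.55 as the in vivo lowest, median and highest and at 10.90, 10.74, 10.68 and 10.46 ex vivo. Every ex vivo value lay above every in vivo value, with a difference of 1.28 ± 0.09 (limma, adjusted p = 1.15e-07). The 2 partner proteins Psmc3ip and Psme3ip1, which are no subunits, and Psma8 were the members called lower.

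**Figure D4:**
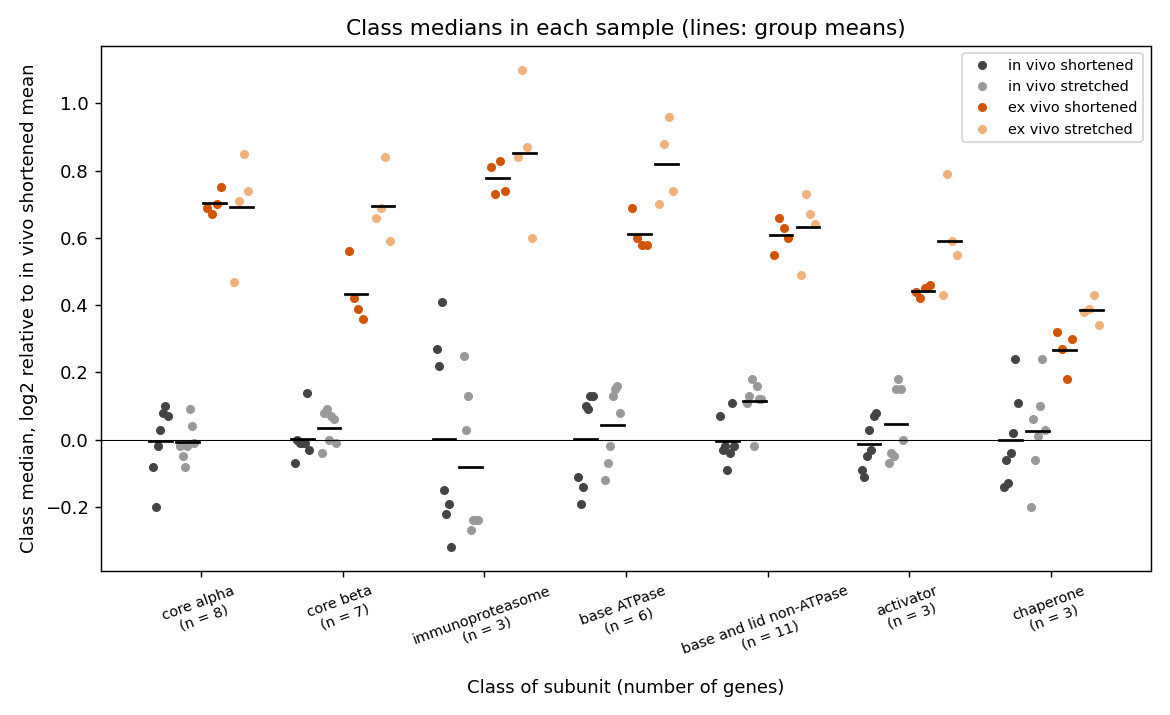
Median log2 level of each class of subunit in every sample, relative to the mean of the in vivo shortened group, after joint quantile normalization (vertical axis); lines are means over 7 animals in vivo and 4 animals ex vivo. Ex vivo points lie above all in vivo points in each class except the chaperones, and the beta class mean is 0.43 in ex vivo shortened and 0.70 in ex vivo stretched tissue.

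Genes that act with the proteasome were counted over the same comparisons, between the settings after joint normalization alone. Of 13 measured genes of proteasome assembly and regulation, 6 were called higher and 5 lower ex vivo in shortened tissue and 7 and 4 in stretched tissue. Of all probes, 32.7% were called higher and 34.5% lower in shortened tissue, and 31.8% and 32.4% in stretched tissue. Usp14, a deubiquitinase bound to the proteasome, differed by 1.16 ± 0.13, Nfe2l1, a transcription factor for proteasome genes, by 0.77 ± 0.15, and Pomp, the core maturation factor, by 0.43 ± 0.08 in shortened tissue. Ngly1, which processes Nfe2l1, was lower by 0.83, with -0.83 ± 0.07. Psmg4 (-0.70 ± 0.08), Uchl5 (-0.50 ± 0.09), Sem1 (-0.45 ± 0.05) and Psmg1 (-0.36 ± 0.10) were the others called lower. The smallest p of the list belonged to Ngly1, Akirin2, which was higher by 0.61 ± 0.06, and Sem1. Of 11 ubiquitin and shuttle genes 7 were called higher and 1 lower in shortened tissue, led by the receptor Sqstm1 with 1.77 ± 0.10. Within the settings 0 genes of either list passed for stretched against shortened tissue, as no probe did.

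Interferon-related genes were higher ex vivo, as were the immunoproteasome and the other classes of members. In shortened tissue the immunoproteasome median was 0.72, beside 0.70 for alpha subunits, 0.61 for ATPases and 0.61 for base and lid. The medians of beta subunits, activators and chaperones were 0.43, 0.44 and 0.19. All 16 measured members of the interferon list were called higher ex vivo in both tissues, with medians of 2.40 and 2.44, and Cxcl10, an interferon-induced chemokine, differed by 5.94 ± 0.13 in shortened tissue. Of 10 MHC class I genes 9 were called higher in both tissues, with Tap1, a subunit of the peptide transporter, at 1.68 ± 0.13. In the same comparison 7 of 8 macrophage markers were called lower, with a median of -2.80, and 6 of 6 lymphocyte markers, with a median of -1.04. The macrophage marker mean per sample was 11.65 to 11.89 in vivo and 8.73 to 9.60 ex vivo in shortened tissue after joint normalization. Of 9 fibroblast markers 8 were called lower, with a median of -0.93, and of 6 neutrophil markers 4 were called higher and 0 lower. Of 5 endothelial markers 3 were called higher and 1 lower, with a median of 0.90, and of 4 adipocyte markers 3 were called lower, with a median of -1.54. The part of any of these in the proteasome values was not tested. Muscle markers differed by a median of -1.84, and with muscle content as a covariate 35 members were called in shortened tissue, 30 of them higher, and 63.3% of all probes.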

How the data were processed

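RNA of 22 tissue pieces was measured as biotin-labelled cRNA on arrays. The deposited table holds log2 values, which the authors made with RMA in affy, per the submitters' processing notes and per the labels, versions not stated. Sample medians differed between the settings, so these looked normalized separately.

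Of 22690 probes 64 control probes were left out. Symbols came from the supplied probe table. Equal sample numbers within a setting mark the pieces of 1 animal, as the stated within-animal design implies. Their deviations from the group means correlated at r of 0.385 to 0.867 in vivo and 0.109 to 0.284 ex vivo. The shortened piece correlated best with the stretched piece of its own number in 5 of 7 animals in vivo and 2 of 4 ex vivo. No samples were identical. Fits used limma 3.58.1 in R 4.3.3 (lmFit, eBayes with trend), with Benjamini-Hochberg adjustment over 22626 probes. Stretch effects used the deposited values with the animal as a block. Comparisons of the settings used joint quantile normalization without a block. The scripts were tested on simulated data.

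The rule for values by sample took Psmb5 to Psmb10, Psme1 and the 2 members of smallest p in each class and comparison; Psme2 had no probe of its own, and not all these are given in full. Of the other lists it took the 3 genes of smallest p. Pomp, Nfe2l1, Usp14, Psmg4, Uchl5, Psmg1 and further members were chosen after their values were seen. Members, lists and tests were chosen with earlier results of these data known. Alternatives changed normalization, block, muscle covariate, probe filter, trend, robust fit, threshold, probe choice and animals left out.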

Additional observations from a re-analysis of the deposited data

Results flagged for a closer look

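Of 132 groups of values (levels of named members and class medians of pair differences), 8 held a sample far from the others by Dixon's criterion, and chance flags about 1 in 20 groups. In vivo stretched animal 1 stood low for Psmb5, at 10.498 with the nearest sample at 10.805, for Psmb7, at 10.174 with the nearest at 10.887, and for Psme3, at 7.186 with the nearest at 7.694. In vivo stretched animal 3 stood high for Psmb9, at 10.442 with the nearest at 9.997. Among ex vivo stretched pieces, animal 4 was low for Psmb10 (10.996, nearest 11.449), animal 2 for Psmc2 (10.921, nearest 11.113) and animal 1 for Psmd5 (8.721, nearest 8.925). Among ex vivo shortened pieces, animal 2 was low for Psma5 (11.277, nearest 11.449). All are log2 values on the deposited scale.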

How the results depend on the processing

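No member passed the threshold for stretched against shortened tissue in vivo or ex vivo under any alternative run. No probe of the array did so either (0.00% in each run), so this outcome is not particular to the members. Without the replicate block that pairs the pieces of an animal, 0 members passed in vivo, ex vivo and for the difference of the stretch effect, and the members with an unadjusted limma p under 0.05 numbered 1, 16 and 6, with 4.77%, 9.60% and 6.34% of all probes. Leaving out each animal gave 0 to 2 calls for that difference (2 without ex vivo animal 1, 1 without ex vivo animal 4, with 2.93% and 1.46% of all probes). Between the settings there were 36 to 38 for shortened tissue (62.9% to 68.1% of all probes) and 35 to 36 for stretched tissue (59.2% to 67.2%). For the stretch, 0 to 8 members in vivo and 1 to 17 ex vivo had an unadjusted limma p under 0.05. The 0 and 8 came without in vivo animals 2 and 7, with 13.2% and 21.4% of all probes. The 1 and 17 came without ex vivo animals 3 and 1, with 4.23% and 15.4% of all probes. Between the settings, centring the deposited values gave 36 calls in each tissue (66.5% and 63.5% of all probes). In vivo animals 1 to 3 alone gave 36 and 31 (66.3% and 54.6% of all probes), and animals 4 to 7 alone 37 and 36 (72.5% and 68.0%). Leaving out in vivo animals 5 and 6 and ex vivo animals 3 and 4 gave 29 in stretched tissue (45.0%). Their pieces differed most in muscle content. The stretched pieces of in vivo animals 3, 4 and 7, at muscle marker means of 12.54, 11.97 and 11.57, stayed in that fit. The last 3 of these fits were chosen after seeing the data. Among members called in stretched tissue, the sign turned on the deposited scale, where all probes shifted by -0.38, for Psmb6 (-0.10), Psmd9 (-0.06) and Psme4, and with the mean of all probes of a gene for Psmd9 (-0.06); Psmc3, Psmd4 and Psmd5, which were not called, were below 0 on the deposited scale too. Psmb9 lost its call there on the deposited scale (0.32, limma adjusted p = 0.107) and against in vivo animals 1 to 3 alone (0.50, adjusted p = 0.0695). Psma1 lost it with the mean of its probes (0.15), and Psmb6 without in vivo animals 5 and 6 and ex vivo animals 3 and 4 (0.27). Of 19 genes with several probes, the probes differed in sign for 6 in vivo, 9 ex vivo, 4 in shortened and 5 in stretched tissue.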
